A study of Mus musculus with 22 samples.

Results

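The entorhinal cortex (EC) of Ts66Yah mice was compared with that of their wild-type (wt) littermates by RNA-Seq. The members were the libraries whose labels name the EC, 11 of the 22 in the series: 5 from wt and 6 from Ts66Yah mice, each from a different animal. The other 11 libraries came from the hippocampus (HIP) of the same mice. All mice were male and 5 to 6 months old, on a mixed B6C3B background of C57BL/6J and C3B, a sighted C3H strain. Ts66Yah mice carry a freely segregating minichromosome that was made from the Ts65Dn one by removing its centromeric part of mouse chromosome 17 (Mmu17) with CRISPR/Cas9, and the line goes back to 1 mosaic founder. The wt mice lack the minichromosome, and the labels name no treatment for either genotype.

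Down syndrome is caused by an additional copy of human chromosome 21 (Hsa21), and the distal end of mouse chromosome 16 (Mmu16) holds a large block of the same genes. With 3 copies in place of 2, a gene that is transcribed in proportion to its copies gives 1.5 times the RNA. The EC is the cortical area through which most neocortical input reaches the hippocampus, it serves recognition and spatial memory, and it is affected early in Alzheimer disease. The triplicated segment was taken here from Mir155 to the end of Mmu16 (GRCm38, chromosome 16, 84714140 to 98082450). It holds 291 annotated genes, of which 135 code for proteins.

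The total count per EC library ranged from 29951309 to 43094619 reads, with a median of 34083374. The tissue label was checked against the HIP in the wt mice: all 8 genes of a hippocampal list were lower in every EC library than in every HIP library, and 10 of 16 cortical layer genes were higher without overlap, while 1, Bcl11b, was lower without overlap. The share of all genes without overlap between the regions is not given here. The check sets cortex apart from hippocampus and cannot tell the EC from other cortex. Among 112 groups examined for an outlying library, 5 library values stood apart from their group, a share near that flagged by chance. All 5 were mean levels of single gene lists, in Ts66Yah replicates 4 and 5 and wt replicates 2 and 4. The largest of these scores were those of Ts66Yah replicate 4, for interferon-stimulated genes, and wt replicate 2, for striatal genes. The interferon-stimulated result is given with and without Ts66Yah replicate 4, and the striatal median with and without wt replicate 2. For the other flagged lists no value without the flagged library is given. Levels are in CPM, the count of a gene scaled to the total of its library and its TMM factor, and a gene was called when its adjusted p in edgeR's quasi-likelihood test was under 0.05.

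Genes of the segment were higher in the Ts66Yah EC. Of 93 tested, 45 (48.4%) rose and none fell, against 0.283% of all 17658 genes tested. The rises ran from 1.37-fold to 2.001-fold, and the median over all 93 genes was 1.49-fold, or 0.57 on the log2 scale, where the median of all tested genes was -0.0045. A fold change above 1 was found for 90 of the 93, and the genotypes did not overlap for 54 of them, against 0.677% of the genes outside the segment. Among protein-coding genes 44 of 80 rose, and among the other 13 genes 1 did. As a median over the segment's genes, the log2 difference from the wt mean lay between -0.039 and 0.016 in the wt libraries and between 0.54 and 0.61 in the Ts66Yah libraries, with replicate 4 at 0.57. A further 196 genes of the segment were too low to be tested, of which 96 had no read in any EC library.

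**Figure D1:**
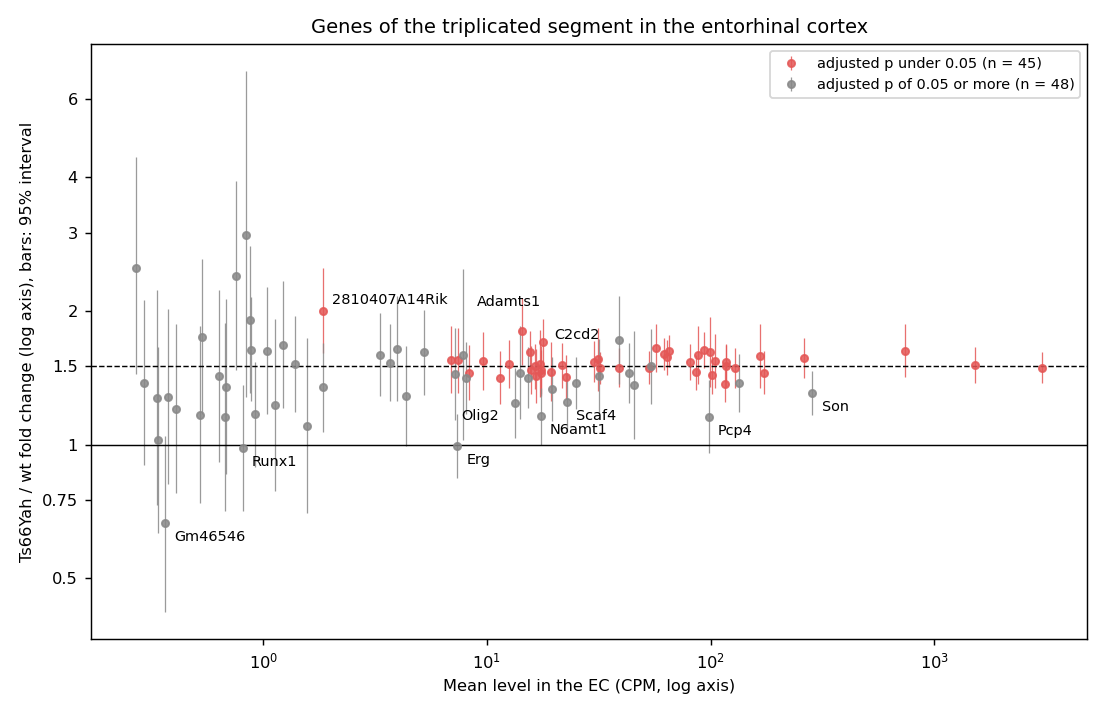
Fold change of each tested gene of the triplicated segment (vertical log axis, bars are 95% intervals) against its mean level in the EC in CPM (horizontal log axis), with called genes in red. The 45 called genes lie around the dashed line at 1.5-fold, and the named genes are the 11 whose interval does not hold 1.5.

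Genes of cell adhesion, the extracellular matrix and the amyloid pathway were higher in Ts66Yah. Of 8 tested in this group 5 rose, none of the 8 had a fold change under 1, and their median was 0.68 on the log2 scale. Jam2, a junctional adhesion molecule, read 49.4, 47.3, 48.7, 49.96 and 47.2 CPM in the wt libraries and 80.7, 72.0, 85.7, 79.1, 79.7 and 75.03 CPM in the Ts66Yah libraries. The lowest Ts66Yah library thus lay above the highest wt library by more than 20 CPM. The rise was 1.62-fold (95% interval 1.49 to 1.76), a change of 0.70 ± 0.055 (SE) on the log2 scale (edgeR adjusted p 9.08e-05). App, which encodes the amyloid precursor protein, took the most reads of any gene of the segment and read 2362, 2512, 2507, 2396 and 2216 CPM in the wt libraries and 3690.0, 3567, 3586, 3335, 3616 and 3640.3 CPM in the Ts66Yah libraries. All 6 Ts66Yah libraries lay above all 5 wt libraries, and the rise was 1.49-fold (95% interval 1.37 to 1.61) with an edgeR adjusted p of 0.000198. Dscam, a homophilic cell adhesion molecule of developing neurites, read 72.6, 74.9996, 68.1, 66.3 and 65.8 CPM in the wt libraries and 118, 109, 106, 112, 109 and 127 CPM in the Ts66Yah libraries, a rise of 1.63-fold (95% interval 1.49 to 1.79) with an edgeR adjusted p of 0.000163. Adamts1, a secreted metalloprotease, rose 1.80-fold and Cyyr1 1.55-fold. Bace2, a protease related to the beta-secretase, was 1.61-fold higher without passing the test (edgeR adjusted p 0.106), although its libraries did not overlap, and so was Adamts5 at 1.59-fold (adjusted p 0.108).

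Genes of synaptic traffic and of ion transport rose in 4 of 8 cases, with a median of 0.54 on the log2 scale. Synj1, the phosphoinositide phosphatase of synaptic vesicle recycling, read 553 ± 62.1 CPM in wt (SD, n = 5) and 899.8 ± 95.3 CPM in Ts66Yah (SD, n = 6), a rise of 1.63-fold (95% interval 1.42 to 1.87) with an edgeR adjusted p of 0.00243. Itsn1, an endocytic scaffold, rose 1.45-fold, Tiam1, an activator of the GTPase Rac, 1.58-fold, and Kcnj6, the potassium channel GIRK2, 1.56-fold. The kainate receptor subunit Grik1 was 1.33-fold higher and did not pass (edgeR adjusted p 0.304). Pcp4, a calmodulin-binding protein, stood apart from these with only 1.15-fold (95% interval 0.955 to 1.40): it read 106, 107, 79.9, 66.1 and 94.2 CPM in the wt libraries and 93.7, 118, 114, 101, 117 and 84.0 CPM in the Ts66Yah libraries, and the genotypes overlapped.

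Of the 5 tested kinases and calcineurin regulators 2 rose, with a median of 0.61. Dyrk1a, a kinase long studied as a dosage-sensitive gene of Hsa21, read 90.9, 94.0, 91.9, 101 and 79.2 CPM in the wt libraries and 148, 145, 141, 138, 128 and 140.2 CPM in the Ts66Yah libraries. The rise was 1.53-fold (95% interval 1.39 to 1.69) with an edgeR adjusted p of 0.000412. Rcan1, an inhibitor of the phosphatase calcineurin, rose 1.46-fold (95% interval 1.33 to 1.59), with an adjusted p of 0.000585. The kinase Hunk was 1.72-fold higher in non-overlapping libraries and just missed the threshold (edgeR adjusted p 0.0577).

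The segment holds a cluster of receptor genes for interferons and related cytokines, beside Mx genes. Of 5 tested 3 rose, with a median of 0.68 on the log2 scale. Ifnar1 and Ifnar2 encode the chains of the type I interferon receptor, Ifngr2 a chain of the interferon gamma receptor, and Il10rb a chain shared by the interleukin 10 and interferon lambda receptors. Ifnar1 read 45.5, 45.3, 51.1, 48.6 and 43.9 CPM in the wt libraries and 75.2, 72.3, 76.0, 78.7, 72.9 and 75.3 CPM in the Ts66Yah libraries. The Ts66Yah libraries were tightly grouped, and the rise was 1.6005-fold (95% interval 1.47 to 1.74) with an edgeR adjusted p of 9.08e-05. Ifnar2 read 9.80 ± 0.946 CPM in wt (SD, n = 5) and 14.9 ± 1.01 CPM in Ts66Yah (SD, n = 6), a rise of 1.52-fold, and Ifngr2 42.02 ± 3.48 CPM in wt (SD, n = 5) and 69.3 ± 7.30 CPM in Ts66Yah (SD, n = 6), a rise of 1.65-fold. Il10rb was 1.41-fold higher without passing (edgeR adjusted p 0.248). Mx2, of the same segment, belongs to the interferon-induced GTPase genes, and the paper lists it as a polymorphic pseudogene. Mx2 read 0.238, 0.529, 0.351, 0.477 and 0.457 CPM in the wt libraries and 0.748, 0.231, 1.10, 3.70, 0.713 and 0.703 CPM in the Ts66Yah libraries. One library, Ts66Yah replicate 4, held most of its difference: with it the fold change was 2.96-fold (edgeR adjusted p 0.646), and without it 1.72-fold (adjusted p 0.779).

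Of 17 tested transcription and chromatin genes 9 rose, with a median of 0.51, the lowest among these groups. Those that rose were Morc3 (1.54-fold), Brwd1 (1.49-fold), Bach1 (1.501-fold), Ets2 (1.37-fold), Hmgn1 (1.47-fold), Hlcs (1.42-fold), Mis18a (1.55-fold), Prdm15 (1.42-fold) and Zbtb21 (1.46-fold). Bach1 is a repressor of heme and oxidative stress genes, Hmgn1 a nucleosome-binding protein, and Hlcs the ligase that attaches biotin to carboxylases. The group also held genes near no change. Erg, an endothelial transcription factor, read 7.53, 6.58, 7.51, 8.11 and 7.34 CPM in the wt libraries and 8.66, 6.21, 8.29, 6.23, 7.88 and 6.83 CPM in the Ts66Yah libraries. The wt range lay within the Ts66Yah range, and the change was 0.992-fold (95% interval 0.840 to 1.17), an interval that leaves out 1.5. Runx1, of the blood and microglial lineages, had 0.983-fold (95% interval 0.709 to 1.36) at a mean of only 0.812 CPM. Olig2, the transcription factor of the oligodendrocyte lineage, read 10.4, 12.5, 13.4, 9.34 and 13.6 CPM in the wt libraries and 12.3, 12.4, 14.8, 16.9, 15.6 and 16.004 CPM in the Ts66Yah libraries and had 1.24-fold (95% interval 1.03 to 1.48), with an edgeR adjusted p of 0.717. Its neighbour Olig1 had 1.36-fold (95% interval 1.03 to 1.80), an interval that holds 1.5. The list of 10 oligodendrocyte precursor genes outside the segment had a median log2 fold change of 0.053, with 7 higher and none called.

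The group of RNA processing, protein folding and turnover had the largest count of rises, 10 of 14, with a median of 0.59. Wrb, a receptor that inserts tail-anchored proteins into the endoplasmic reticulum, read 44.7, 46.9, 51.8, 47.3 and 51.5 CPM in the wt libraries and 72.5, 79.2, 79.5, 70.3, 75.4 and 80.1 CPM in the Ts66Yah libraries, a rise of 1.57-fold (95% interval 1.44 to 1.72) with an edgeR adjusted p of 0.000198. Ttc3, an E3 ubiquitin ligase, read 1206, 1226, 1198, 1244 and 1065 CPM in the wt libraries and 1893, 1869, 1725, 1737, 1621 and 1914 CPM in the Ts66Yah libraries. It rose 1.51-fold (95% interval 1.37 to 1.66), and the genotypes did not overlap. The chaperonin subunit Cct8 rose 1.56-fold, the deubiquitinase Usp16 1.51-fold, the ribosome quality control ligase Ltn1 1.62-fold, and the proteasome assembly chaperone Psmg1 1.42-fold. Rwdd2b (1.62-fold), Dnajc28 (1.47-fold), Donson (1.54-fold) and Urb1 (1.52-fold) completed the group of rises. Son, a splicing cofactor of nuclear speckles, read 263, 253, 236, 257 and 216 CPM in the wt libraries and 331, 289.7, 315, 365, 280.3 and 336 CPM in the Ts66Yah libraries. All Ts66Yah libraries lay above all wt libraries, but the change was only 1.30-fold (95% interval 1.16 to 1.46), below 1.5, with an edgeR adjusted p of 0.0679. Scaf4, which binds RNA polymerase II, had 1.25-fold (95% interval 1.07 to 1.45), and the methyltransferase gene N6amt1 1.16-fold (95% interval 0.998 to 1.34).

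Membrane traffic and glycosylation genes rose in 5 of 6 cases, with a median of 0.56. Vps26c, a subunit of the endosomal retriever complex, read 42.8, 44.7, 42.03, 40.1 and 39.8 CPM in the wt libraries and 60.1, 63.2, 64.8, 57.1, 66.5 and 62.4 CPM in the Ts66Yah libraries, a rise of 1.49-fold (95% interval 1.37 to 1.62). C2cd2 read 13.2, 15.1, 12.9, 11.2 and 12.3 CPM in the wt libraries and 22.98, 21.7, 21.4, 20.5, 21.6 and 23.7 CPM in the Ts66Yah libraries. With 1.70-fold (95% interval 1.51 to 1.92) it was one of the 3 genes whose interval lay above 1.5. Tmem50b (1.504-fold), Dop1b (1.43-fold) and Pigp (1.45-fold), of glycosylphosphatidylinositol synthesis, rose as well.

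All 9 tested genes of mitochondria, redox and metabolism were higher and 5 rose, with a median of 0.58. Mrpl39, which encodes a protein of the mitochondrial ribosome and lies near the start of the segment, read 24.3, 24.9, 25.4, 25.3 and 26.4 CPM in the wt libraries and 36.6, 39.6, 37.0, 34.99, 38.9 and 38.2 CPM in the Ts66Yah libraries, a rise of 1.49-fold (95% interval 1.37 to 1.61). Cryzl1 read 59.9, 60.9, 62.1, 67.7 and 62.7 CPM in the wt libraries and 97.4, 98.8, 96.3, 84.9, 106 and 93.5 CPM in the Ts66Yah libraries and rose 1.53-fold (95% interval 1.40 to 1.68). The ATP synthase subunits Atp5j and Atp5o rose 1.54-fold and 1.59-fold, and the purine synthesis enzyme Gart 1.49-fold. Sod1, the cytosolic superoxide dismutase, read 111 ± 19.3 CPM in wt (SD, n = 5) and 153 ± 13.5 CPM in Ts66Yah (SD, n = 6), 1.38-fold (95% interval 1.18 to 1.6002), and did not pass (edgeR adjusted p 0.121). The 13 tested ATP synthase genes outside the segment had a median log2 fold change of -0.026, with 5 higher and none called.

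Of 6 protein-coding genes without a clear common role, Smim11 rose (1.45-fold), and their median was 0.60. A further 15 tested genes were in no group, 3 of them protein-coding, and 1 rose. This was the long non-coding RNA 2810407A14Rik, which read 1.19, 0.998, 1.08, 1.40 and 1.31 CPM in the wt libraries and 2.54, 2.28, 2.95, 2.04, 2.24 and 2.31 CPM in the Ts66Yah libraries, a rise of 2.001-fold (95% interval 1.61 to 2.50) and the largest among the called genes of the segment. With the replicate number as a block it did not pass (edgeR adjusted p 0.123), nor did Adamts1 (0.0693).

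Most intervals were too wide to tell 1.5-fold from other values. The 95% interval held 1.5 for 82 of the 93 genes. For 69 of these it left out no change, and for 13 it held both. It lay above 1.5 for C2cd2, 2810407A14Rik and Adamts1, which read 9.52, 9.22, 9.05, 12.4 and 9.80 CPM in the wt libraries and 17.6, 17.6, 16.2, 14.5, 21.3 and 20.8 CPM in the Ts66Yah libraries (1.80-fold, 95% interval 1.51 to 2.14). It lay below 1.5 for 8 genes. Of these Son, Scaf4 and Olig2 had an interval still above 1, though none of them was called. For N6amt1, Pcp4, Runx1, Erg and the pseudogene Gm46546 (0.666-fold, 95% interval 0.420 to 1.05, mean 0.364 CPM) the interval also held no change. The intervals are per gene and not corrected for the 93 genes, so that some would leave out 1.5 by chance on either side. Other genes overlap the spans of Scaf4 (Sod1, opposite strand), Son (Donson, opposite strand), C2cd2 (Zbtb21, same strand) and Pcp4 (Igsf5, same strand), and the same holds for Cryzl1 (Atp5o, same strand) and Ttc3 (Pigp, opposite strand). The strand setting of the counting is not given, so that reads of these partners cannot be told apart here. With 1 library left out at a time, from 1 to 6 genes lay above 1.5, with the lowest count in the absence of wt replicate 1 and the highest in the absence of wt replicate 4, and from 6 to 9 lay below it.

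Leaving out Ts66Yah replicate 4 changed little in the segment. The number of calls went from 45 of 93 to 39 of 92 and the median fold from 1.489 to 1.492. All 39 were among the 45. The 6 genes lost were Urb1, Ltn1, Psmg1, Mis18a, Kcnj6 and Prdm15, with edgeR adjusted p-values from 0.0574 to 0.0921. When each of the 11 libraries was left out in turn, 35 of the 45 genes were called every time.

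Outside the segment few genes changed. Of 17565 tested genes 5 were called (0.0285%), with Gm11966, Gm42608 and Alox8 higher and Gm14113 and Trem2 lower in Ts66Yah. Before adjustment, 1028 genes (5.85%) had a p under 0.05, 418 higher and 610 lower. Without Ts66Yah replicate 4, 2 of 17432 (0.0115%) were called, Gm11966 and Gm42608, and no gene was gained. The count rested on single libraries: without wt replicates 1, 3 or 4 it was 3, 1 or 17, and without Ts66Yah replicates 2, 3, 4 or 5 it was 2, 3, 2 or 8. DESeq2 gave 50 calls (0.28%), 22 higher and 28 lower, which include 4 of the 5.

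Alox8 encodes a lipoxygenase, an enzyme that adds oxygen to polyunsaturated fatty acids such as arachidonic acid. The gene (ENSMUSG00000020891, GRCm38, chromosome 11, 69183932 to 69197843) read 4.52, 4.02, 3.39, 3.49 and 4.51 CPM in the wt libraries and 6.04, 5.71, 6.25, 6.53, 7.40 and 5.49 CPM in the Ts66Yah libraries. The groups did not overlap, and the change of 0.65 ± 0.12 (SE) on the log2 scale (edgeR adjusted p 0.0362) was a rise of 1.57-fold (95% interval 1.31 to 1.87). Its neighbour Alox12b, an epidermal lipoxygenase gene (chromosome 11, 69156989 to 69169792), had a negative log2 fold change and read 7.41, 6.81, 6.88, 5.61 and 6.20 CPM in the wt libraries and 5.42, 3.80, 4.65, 3.98, 4.86 and 4.42 CPM in the Ts66Yah libraries. Its groups did not overlap either, with a change of -0.54 ± 0.12 (SE) on the log2 scale (edgeR adjusted p 0.105), which did not pass. The third lipoxygenase gene of this cluster, Aloxe3, had -0.12 (adjusted p 0.970). Among the 14 tested lipoxygenase and prostaglandin genes, Alox8 was the only one called, 6 were higher, and the median was -0.028. Without Ts66Yah replicate 4 the log2 fold change of Alox8 was 0.63 with an edgeR adjusted p of 0.0891. With each library left out in turn, Alox8 kept its call 3 times, in the absence of wt replicate 1, wt replicate 5 or Ts66Yah replicate 6, and its adjusted p ranged from 0.0407 to 0.128. It did not pass with the replicate number as a block (edgeR adjusted p 0.116) or with the range of the animal numbers as a block and wt replicate 1 left out (0.0846).

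Trem2, a lipid-sensing receptor of microglia, the resident macrophages of the brain (ENSMUSG00000023992, chromosome 17, 48346401 to 48354147), read 19.5, 13.4, 17.2, 13.3 and 21.8 CPM in the wt libraries and 10.3, 8.85, 11.2, 11.4, 10.8 and 10.8 CPM in the Ts66Yah libraries. The Ts66Yah libraries were low and close together, whereas the wt libraries were spread, and the groups did not overlap. Trem2 fell, with a change of -0.69 ± 0.13 (SE) on the log2 scale (edgeR adjusted p 0.0444), or 0.620-fold (95% interval 0.511 to 0.752). The values of its signalling partner Tyrobp overlapped, from 15.4 to 22.7 CPM in wt and from 15.2 to 19.2 in Ts66Yah (log2 fold change -0.10). In the list of 24 microglial genes 23 had a negative log2 fold change, where 48.5% of all tested genes were positive. Trem2 was the only one called, and the median was -0.15. Including Trem2, 7 had an unadjusted p under 0.05 in edgeR, as did 6.25% of all tested genes. Markers of a cell type can vary together, so that the 24 genes are not independent. The next by p were Fcrls (-0.55, edgeR adjusted p 0.524), Olfml3 (-0.36, adjusted p 0.646) and P2ry12 (-0.22, adjusted p 0.722). The summed level of the list ranged from 797 to 1075 CPM in wt and from 802 to 943 CPM in Ts66Yah, and none of its genes was at 0. Its mean score overlapped too, from -0.24 to 0.17 in wt and from -0.30 to -0.066 in Ts66Yah. In bulk tissue, fewer cells of a type and less RNA per cell cannot be told apart. The direction of the list was the same without Ts66Yah replicate 4 (1 of 24 higher, median -0.17), but Trem2 was not called then (edgeR adjusted p 0.0843). With each library left out in turn, Trem2 kept its call in the absence of wt replicate 2 or wt replicate 4 and lost it otherwise, and its adjusted p ranged from 0.0228 to 0.184. It did not pass in limma voom (adjusted p 0.0684), with replicate number as block (edgeR adjusted p 0.123) or with the range of the animal numbers as a block and wt replicate 1 left out (0.236).

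**Figure D2:**
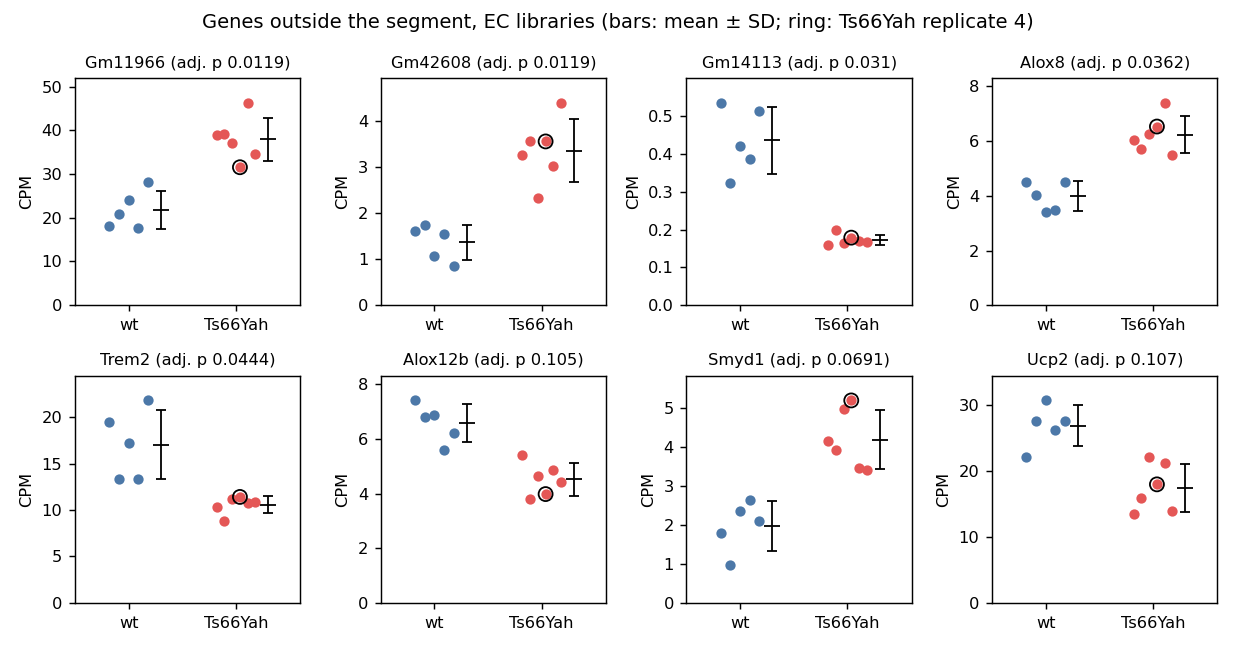
Level of 8 genes outside the segment in each EC library (points, CPM, axes from 0), with the mean and SD beside the points and a ring around Ts66Yah replicate 4. The first 5 are the called genes, whose genotypes do not overlap, and Alox12b, Smyd1 and Ucp2 did not pass the test.

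Gm42608 (ENSMUSG00000106651, chromosome 3, 55517569 to 55519586) is an unproven transcript that lies on the same strand inside Dclk1, a gene of a microtubule-associated kinase. It read 1.61, 1.73, 1.08, 1.55 and 0.857 CPM in the wt libraries and 3.26, 3.57, 2.31, 3.55, 3.02 and 4.39 CPM in the Ts66Yah libraries, a rise of 2.46-fold (95% interval 1.80 to 3.35) with an edgeR adjusted p of 0.0119. Dclk1 itself had 1.05-fold and did not pass the test. With each library left out in turn Gm42608 was called 10 of 11 times, and in the absence of wt replicate 3 its adjusted p was 0.0541. Gm14113 (ENSMUSG00000084371, chromosome 2, 147289755 to 147290730), a processed pseudogene on the strand of the non-coding gene Nkx2-2os, read 0.536, 0.323, 0.421, 0.388 and 0.514 CPM in the wt libraries and 0.160, 0.198, 0.165, 0.179, 0.170 and 0.167 CPM in the Ts66Yah libraries. These levels are low, and it fell with a change of -1.32 ± 0.24 (SE) on the log2 scale (edgeR adjusted p 0.0310). It kept its call in 1 of 11 such fits, the one that left out wt replicate 2, and its adjusted p reached 0.125. It did not pass in DESeq2 (adjusted p 0.0836), with replicate number as block (edgeR adjusted p 0.324) or with the range of the animal numbers as a block and wt replicate 1 left out (0.177).

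Gm11966 (ENSMUSG00000080904, chromosome 11, 5818497 to 5818583, minus strand) is a processed pseudogene of 87 bases. It read 18.2, 20.9, 24.0, 17.6 and 28.2 CPM in the wt libraries and 38.8, 39.1, 37.0, 31.5, 46.3 and 34.6 CPM in the Ts66Yah libraries, a rise of 1.74-fold (95% interval 1.44 to 2.10) with an edgeR adjusted p of 0.0119, and it was called whichever library was left out. With the range of the animal numbers as a block and wt replicate 1 left out, its adjusted p was 0.0659, against 0.0457 with wt replicate 1 left out and no block, whereas that of Gm42608 with the block was 0.0321. Its sequence occurs without a difference in the coding sequence of Atp5j, which lies in the segment. Both stretches are shown from the annotated transcripts of GENCODE M21 (GRCm38), 5′ to 3′, to let this identity be seen.
Gm11966: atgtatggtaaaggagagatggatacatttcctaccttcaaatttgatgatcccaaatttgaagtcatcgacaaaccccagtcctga
Atp5j: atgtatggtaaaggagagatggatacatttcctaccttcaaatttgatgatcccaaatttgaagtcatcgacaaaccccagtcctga
All 38 of the 50-base windows of Gm11966 occur in Atp5j, so that a read of 50 bases from Gm11966 has the same letters as one from that stretch of Atp5j. Gm5436 (chromosome 12, 84258331 to 84258973, minus strand), a processed pseudogene of Atp5o, differs from its parent at single bases, which are in capitals here over the first 120 coding bases.
Gm5436: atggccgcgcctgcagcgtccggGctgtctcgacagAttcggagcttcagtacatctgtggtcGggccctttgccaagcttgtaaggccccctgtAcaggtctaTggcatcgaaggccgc
Atp5o: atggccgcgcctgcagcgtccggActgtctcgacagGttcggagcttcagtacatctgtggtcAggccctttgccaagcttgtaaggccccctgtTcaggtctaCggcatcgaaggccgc
Over its whole length 25.4% of the 50-base windows of Gm5436 occur in Atp5o. It read 12.5, 14.8, 12.4, 14.9 and 16.1 CPM in the wt libraries and 20.02, 24.4, 20.5, 19.3, 25.4 and 16.8 CPM in the Ts66Yah libraries, with a change of 0.58 ± 0.11 (SE) on the log2 scale (edgeR adjusted p 0.0577), which did not pass. Gm8566, a pseudogene of Sod1 on chromosome 6 (plus strand), shares 32.9% of its windows with its parent. It read 12.5, 18.7, 22.7, 14.7 and 28.1 CPM in the wt libraries and 26.2, 29.8, 32.8, 33.7, 34.5 and 35.9 CPM in the Ts66Yah libraries, with a change of 0.73 ± 0.17 (SE) on the log2 scale (edgeR adjusted p 0.188). Gm9001, a pseudogene of Pigp also on chromosome 6 that shares 56.6% of its windows, had a change of 0.54 ± 0.15 (SE) on the log2 scale (edgeR adjusted p 0.344). In all, 22 tested genes outside the segment aligned to a transcript of the segment at 90% identity or more over at least 80% of their length. Of these 1 was called, 12 were higher, 6 had an unadjusted p under 0.05, and the median log2 fold change was 0.14. Of all tested genes outside the segment 0.0285% were called, 48.3% were higher and 5.85% had such a p. The 4 pseudogenes Gm11966, Gm5436, Gm8566 and Gm9001 were chosen after their values were seen, as those of protein-coding genes of the segment.

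The genes of smallest p that did not pass were, with a mean of at least 1 CPM, 15 genes with adjusted p-values from 0.0538 to 0.166, 4 of them higher and 11 lower. They were picked by p, so that a lack of overlap is no separate result. Smyd1, a muscle histone methyltransferase, read 1.79, 0.969, 2.36, 2.65 and 2.11 CPM in the wt libraries and 4.17, 3.93, 4.98, 5.21, 3.46 and 3.42 CPM in the Ts66Yah libraries (log2 fold change 1.08 ± 0.22 SE, edgeR adjusted p 0.0691). Slc5a5, the sodium iodide symporter, read 23.2, 16.6, 8.93, 19.8 and 18.9 CPM in the wt libraries and 21.4, 44.01, 40.9, 47.5, 33.9 and 36.7 CPM in the Ts66Yah libraries (log2 fold change 1.10 ± 0.23 SE, edgeR adjusted p 0.0876), with Ts66Yah replicate 1 as the only one within the wt range. Ncan, the perineuronal proteoglycan neurocan, stood at 0.26 (edgeR adjusted p 0.166), and the remaining one was Gm5436. On the lower side, Ucp2, a mitochondrial carrier, read 22.1, 27.5, 30.7, 26.2 and 27.6 CPM in the wt libraries and 13.5, 15.9, 22.1, 17.97, 21.3 and 13.9 CPM in the Ts66Yah libraries (log2 fold change -0.62 ± 0.13 SE, edgeR adjusted p 0.107). Rfx5, a transcription factor of MHC class II genes, had -0.48 (adjusted p 0.140), the MYC antagonist Mxd4 -0.36 (0.0592), and Pnrc2, of mRNA decay, -0.32 (0.0822). The others were A830052D11Rik (-0.89), Galnt15 (-0.82), Gm11613 (-0.45), Gsg1l (-0.32), Gramd4 (-0.26), Haus2 (-0.26) and Alox12b. DESeq2 called all 15.

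Interferon-stimulated genes were high in the EC library of one Ts66Yah mouse. Type I interferons act through the receptor encoded by Ifnar1 and Ifnar2 and switch on these genes, many of which restrict viruses. Of 34 tested outside the segment 33 had a positive log2 fold change and none was called. The median was 0.35, and 5 had an unadjusted p under 0.05. Ts66Yah replicate 4 had the highest value of all 11 libraries for 31 of the 34. Without it 23 of 33 were higher, the median was 0.077, and none was called. The mean log2 difference from wt was -0.090, 0.021, -0.080, -0.020 and 0.17 in the wt libraries and 0.18, 0.011, 0.35, 1.44, 0.12 and -0.14 in the Ts66Yah libraries, so that apart from replicate 4 the genotypes overlapped. In replicate 4 the genes stood at a median of 2.45 times the median of the other 5 Ts66Yah libraries, and 21 of them at more than 2 times. The largest ratio was that of Usp18, a negative regulator of interferon signalling, at 6.18 CPM in replicate 4 against 0.759 CPM. Isg15, a ubiquitin-like modifier, read 1.37, 1.59, 1.17, 1.58 and 2.29 CPM in the wt libraries and 1.47, 2.24, 2.01, 9.32, 1.90 and 1.41 CPM in the Ts66Yah libraries. Ifit1 read 1.99, 3.02, 2.20, 1.94 and 2.91 CPM in the wt libraries and 1.87, 1.68, 4.05, 11.7, 2.14 and 2.04 CPM in the Ts66Yah libraries. Usp18, Isg15 and Ifit1 were chosen for their ratio, after their values were seen.

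By p, the first of the list were Oas2, Ifi27, Ifi44 and Lgals3bp. Oas2, an antiviral oligoadenylate synthetase, read 0.149, 0.294, 0.234, 0.268 and 0.314 CPM in the wt libraries and 0.855, 0.297, 0.358, 1.15, 0.442 and 0.502 CPM in the Ts66Yah libraries, a change of 1.26 ± 0.38 (SE) on the log2 scale (edgeR adjusted p 0.446). Without replicate 4 its log2 fold change was 0.97 (adjusted p 0.616). Ifi27 read 22.8, 23.1, 21.2, 19.8 and 22.9 CPM in the wt libraries and 25.5, 26.3, 25.6, 25.9, 33.7 and 23.3 CPM in the Ts66Yah libraries, a change of 0.28 ± 0.090 (SE) on the log2 scale (edgeR adjusted p 0.514). It was the only gene of the list without overlap, and here replicate 5 was highest. Ifi44 had 1.54 with replicate 4 and 0.78 without it, and Lgals3bp 0.48 and 0.26. In contrast, the receptor gene Ifnar1 kept its call without this library: the log2 change was then 0.67 in place of 0.68, with an adjusted p of 0.000290. The HIP library of the same mouse did not stand apart in this way. Its score on the interferon list was 0.34, between those of the other Ts66Yah HIP libraries, from 0.068 to 0.35. In the HIP 30 of 34 interferon-stimulated genes were higher in Ts66Yah, with a median of 0.20 and none called. The highest HIP score was that of wt replicate 5, at 0.40. Genes of MHC class I and antigen processing, which interferons also induce, had a median of 0.0033 over 13 genes with none called, and replicate 4 was again the highest Ts66Yah library at 0.31. The microglial score of replicate 4 was -0.23, within the range of the other Ts66Yah libraries.

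**Figure D3:**
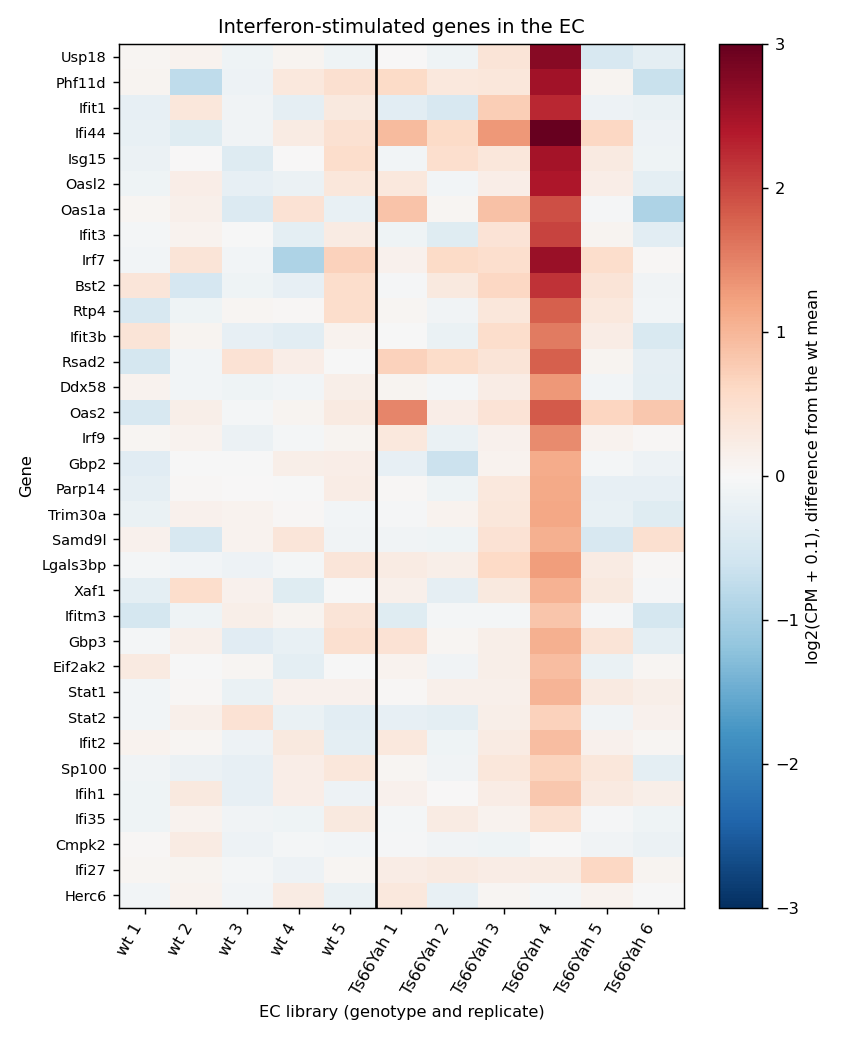
Level of 34 interferon-stimulated genes outside the segment in the 11 EC libraries, as log2(CPM + 0.1) minus the wt mean (red higher, blue lower), ordered by the ratio of Ts66Yah replicate 4 to the other Ts66Yah libraries. Replicate 4 is the highest library for 31 of the genes, and the mean scores of the other Ts66Yah libraries lie between -0.14 and 0.35.

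Activity-regulated genes, which neurons transcribe within minutes of firing, varied strongly between mice. Of 18 tested 15 were higher, with a median of 0.60 with all libraries and 0.72 without Ts66Yah replicate 4, and none was called. Fos, a component of the AP-1 transcription factor, read 12.7, 12.7, 12.4, 5.34 and 23.4 CPM in the wt libraries and 51.4, 17.9, 6.94, 6.87, 74.9 and 58.8 CPM in the Ts66Yah libraries (log2 fold change 1.44 ± 0.60 SE, edgeR adjusted p 0.735). Ts66Yah replicates 1, 5 and 6 were high and replicates 3 and 4 low, and the genotypes overlapped. Arc, a regulator of AMPA receptor endocytosis, read 52.8, 89.0, 78.4, 17.2 and 143 CPM in the wt libraries and 221, 75.1, 28.9, 36.8, 434 and 336 CPM in the Ts66Yah libraries, with the same 3 libraries high (log2 fold change 1.31 ± 0.68 SE, edgeR adjusted p 0.855). Egr2 had 1.49 (edgeR adjusted p 0.797) and Egr1 0.75 (adjusted p 0.853). The mean score of the list ranged from -0.50 to 0.72 in wt and from -0.52 to 1.34 in Ts66Yah. The HIP of replicates 1, 5 and 6 also held the 3 highest Ts66Yah scores, 0.40, 0.56 and 0.47. Wt replicate 5 scored higher than these in the HIP, at 0.68, so that the genotypes overlapped there too.

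Across the Ts66Yah EC libraries, meningeal genes varied in the other direction. Of 13 tested 12 had a negative log2 fold change and none was called. The median was -0.34 with all libraries and -0.65 without Ts66Yah replicate 4. The scores were -1.25, -0.54, 0.61, 0.52, -1.33 and -1.11 in the Ts66Yah libraries, low in replicates 1, 5 and 6 and high in 3 and 4, and from -0.37 to 0.31 in wt. Among the wt libraries the signs were opposite only in replicate 4, at -0.50 for activity-regulated and 0.31 for meningeal genes. Wt replicate 5, at 0.72 and 0.15, was above 0 on both. Lum, a collagen-binding proteoglycan, read 3.99, 4.05, 4.26, 4.53 and 5.26 CPM in the wt libraries and 2.41, 3.80, 5.64, 3.93, 2.79 and 2.31 CPM in the Ts66Yah libraries (log2 fold change -0.34 ± 0.21 SE, edgeR adjusted p 0.890). The summed level of the list ranged from 142 to 228 CPM in wt and from 79.8 to 277 CPM in Ts66Yah, with no gene at 0. Its part in the activity-regulated values was not tested. In the HIP the 13 genes were all higher in Ts66Yah, with a median of 0.17 and none called. There Ts66Yah replicate 1 scored above 0 on both lists, 0.40 for activity-regulated and 0.36 for meningeal genes. The other Ts66Yah HIP libraries had opposite signs on them.

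**Figure D4:**
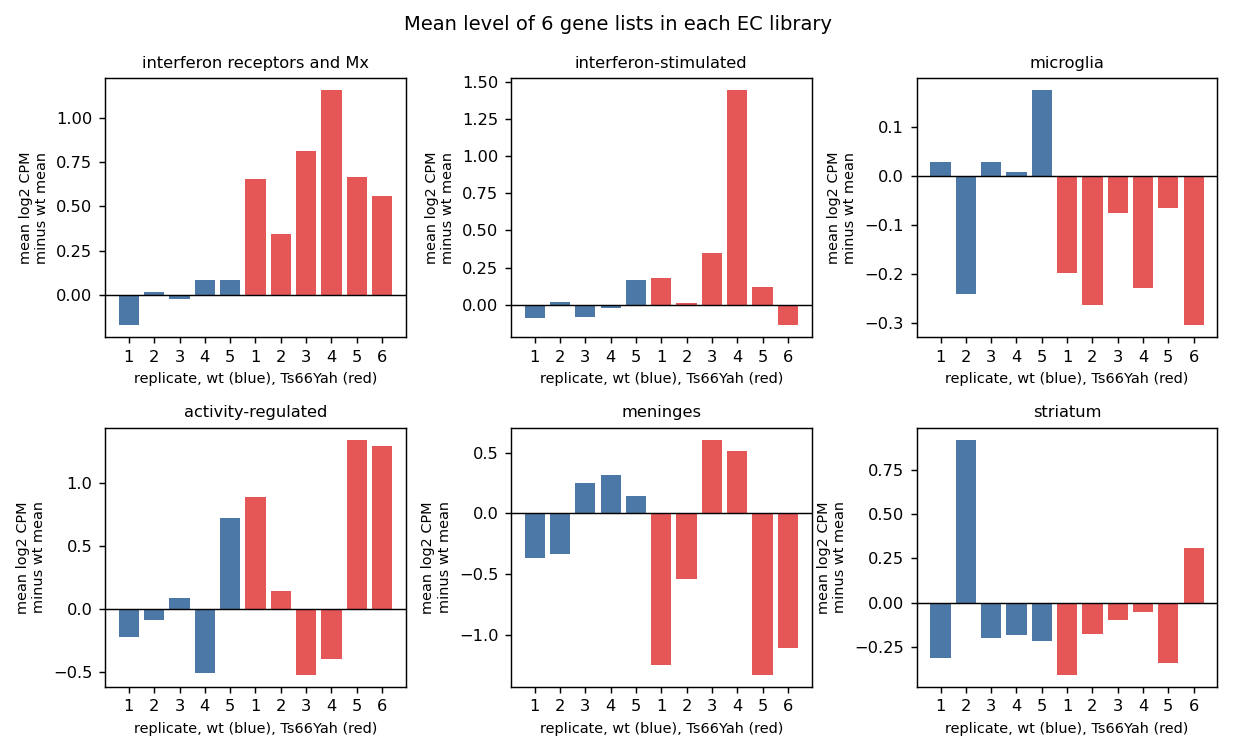
Mean log2 CPM of 6 gene lists in each EC library, as the difference from the wt mean (bars, wt replicates 1 to 5 in blue and Ts66Yah replicates 1 to 6 in red). The list of interferon receptors and Mx of the segment, which includes Mx2, is above 0.3 in every Ts66Yah library. The interferon-stimulated list is high in replicate 4 alone. The activity-regulated and meningeal lists run opposite to each other across the Ts66Yah EC libraries, but not across the wt ones.

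Mural cell genes had a median of -0.27 over 8 genes, 7 of them lower, and none was called. Pdgfrb, the pericyte growth factor receptor, stood at -0.32 on the log2 scale (edgeR adjusted p 0.421) and Vtn -0.36 (adjusted p 0.749). The striatal list had a median of -0.19 over 11 genes, which became 0.24 without wt replicate 2. That library scored 0.92, whereas the other wt libraries lay between -0.31 and -0.18. The interneuron and neuropeptide list had 12 of 14 genes higher and a median of 0.10, none called, with neuropeptide Y (Npy) at 0.31 (edgeR adjusted p 0.645) and corticotropin-releasing hormone (Crh) at 0.67 (adjusted p 0.797). The astrocyte list had a median of -0.058 over 12 genes, with Fgfr3 at -0.19 (adjusted p 0.524) and the gap junction gene Gja1 at -0.21 (adjusted p 0.549).

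No gene was called in the other lists. Medians lay within 0.1 of 0 for excitatory neurons (0.028), cortical layers (0.034), glutamate receptor subunits (0.042), GABA receptor subunits (0.069), synaptic vesicle and SNARE genes (-0.016), developmental signalling (-0.062), the integrated stress response (0.0019), the circadian clock (-0.093), endothelium (-0.028), myelin (0.021), choroid plexus (-0.030) and red blood cells (-0.070). The genes of disease-associated microglia had -0.12 over 8 genes and those of hippocampal subfields 0.15 over 8. Among the vesicle genes, the syntaxin Stx1a had -0.19 (edgeR adjusted p 0.691) and synaptophysin (Syp) -0.12 (adjusted p 0.797). Among developmental genes, Gli1, a transcriptional effector of Hedgehog signalling, had -0.62 (adjusted p 0.446) and Fgf1 0.27 (adjusted p 0.518).

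**Figure D5:**
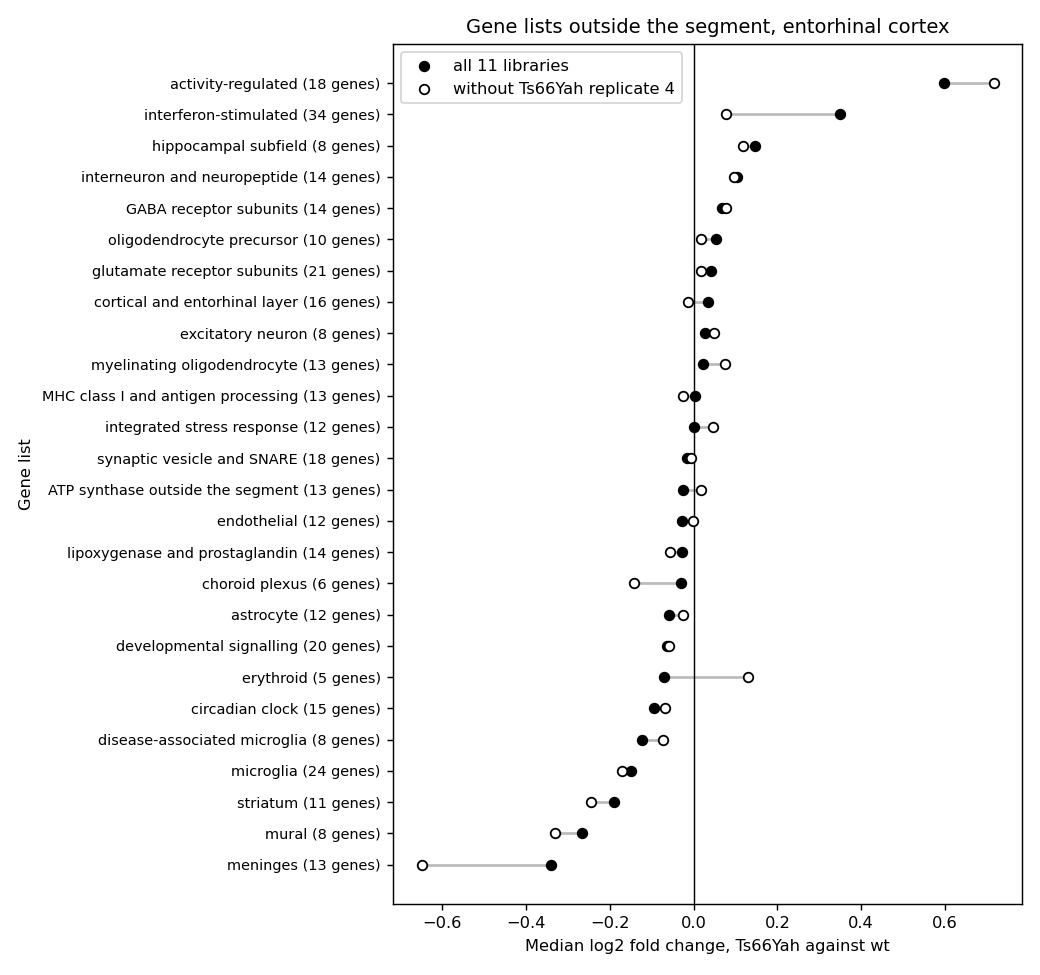
Median log2 fold change of gene lists outside the segment (horizontal axis), with all 11 EC libraries (filled) and without Ts66Yah replicate 4 (open). The interferon-stimulated median moves from 0.35 to 0.077 and the meningeal one from -0.34 to -0.65, whereas that of microglia stays between -0.15 and -0.17.

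The genes called in the EC were set beside their values in the HIP of the same mice, which share their animals and so are not independent. On the log2 scale, Gm11966 changed by 0.80 in the EC and 0.80 in the HIP, Gm42608 1.30 and 0.94, Alox8 0.65 and 0.33, and Trem2 -0.69 and -0.50. Gm14113 was too low to be tested in the HIP. The called genes were picked by p in the EC, so that a smaller change in the HIP is no separate result. The HIP values are given here without SE or adjusted p. For Olig2, a gene of the segment, the EC and HIP values were 0.31 and -0.13. A test of the difference in genotype effect between EC and HIP over all 22 libraries called 0 of 19074 genes in edgeR (0.0%), with 388 at an unadjusted p under 0.05, and limma voom also called 0. These fits had no term for the animal and so ignored that both regions came from the same mice. With the animal as a block edgeR called 0 as well, with 726 at an unadjusted p under 0.05. For Alox8 the difference was 0.32 and for Olig2 0.44, with unadjusted p-values of 0.0313 and 0.00721 from the edgeR fit without the animal. Neither passed the correction.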

How the data were processed

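Per the paper's methods, single-end reads of 50 bases were aligned with Hisat2 to GRCm38 and counted with HTSeq-count against Ensembl release 99. The authors deposited these counts per gene for all samples. The versions of Hisat2 and HTSeq-count, the strand setting and the treatment of multi-mapping reads are not given in the sources used here. The submitters' processing notes name bcl2fastq 2.17.1.14. The library kit is stranded polyA in the labels, whereas the methods name a ribosomal depletion kit. The deposited tables of the authors' own comparisons (fold changes, p-values and scores) were not used.

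Gene names and positions came from GENCODE M21. The 11 EC libraries were fitted alone with edgeR 4.0.16 (R 4.3.3): TMM factors, filterByExpr, the quasi-likelihood test of genotype and Benjamini-Hochberg adjustment over all 17658 genes that passed the filter. Intervals are 95% ones from the fit. Mean scores of gene lists in the EC were taken on log2 CPM with a prior count of 2, and those in the HIP on log2(CPM + 0.1). DESeq2 1.42.0 and limma voom 3.58.1 were alternatives, beside RLE factors, other filters, blocks and each library left out in turn. The edgeR fit was also run on counts simulated from the dispersions fitted to these data. Such counts follow the model of the fit, so they cannot show how it deals with outlying libraries. Transcripts were aligned with blastn 2.17.0. A gene at 1 CPM rests on 29.95 to 43.1 reads in a library. No pair of libraries of a genotype agreed within sampling noise, so all 11 counted as samples, and they came from separate mice.

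The members and gene lists were chosen with earlier results of these data known. Named genes were those called, genes of the segment off 1.5-fold, the 20 genes of smallest p outside it with a mean of at least 1 CPM for those not called, and up to 4 genes of smallest p in each list. Other genes named with values were chosen after these were seen.

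Some items, 1 gene list and some sequences among them, are not reported here.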

Additional observations from a re-analysis of the deposited data

Results flagged for a closer look

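In 5 cases a library lay far from the others of its group, out of 112 groups examined, which were not all list scores. Each of the 5 fell on a list score, the mean log2 level of a list as a difference from the wt mean. Chance flags about 1 in 20 groups. Ts66Yah replicate 4 scored 1.44 on interferon-stimulated genes, where the other Ts66Yah libraries lay between -0.14 and 0.35. Wt replicate 2 scored 0.92 on striatal genes, where the other wt libraries lay between -0.31 and -0.18, and 0.18 on membrane traffic and glycosylation genes of the segment, against -0.072 to -0.0067. Ts66Yah replicate 5 scored 0.76 on the mitochondrial, redox and metabolic genes of the segment, against 0.48 to 0.58 in the other Ts66Yah libraries. Wt replicate 4 scored -0.20 on oligodendrocyte precursor genes, against 0.029 to 0.075.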

How the results depend on the processing

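The median log2 fold change of the segment kept its size under every alternative run, between 0.56 and 0.59, and 36 to 43 of its genes were called when 1 library was left out. The count of calls outside the segment moved from 5 to 50 with DESeq2 (22 higher), 9 without a low-count filter (6 higher), 22 with all 22 libraries in 1 fit (8 higher) and 3 with the range of the animal numbers as a block and wt replicate 1 left out, which is also the count without wt replicate 1 and no block, and lay between 1 and 17 with 1 library left out. Under these settings DESeq2 gave 5 segment genes with an interval above 1.5-fold in place of 3, no filter 8, all 22 libraries 8, and the libraries left out 1 to 6. With the animal range block, again without wt replicate 1, 5 genes lay below 1.5-fold in place of 8, against 6 without wt replicate 1 and no block, so that the block and the left-out library are changed together there. With the replicate number as a block, 35 segment genes and 4 outside were called, 33 and 2 of them among the calls without the block. Deviations of same-numbered libraries correlated at 0.17, 0.068, 0.054, 0.10 and 0.19 over 2000 genes, so the numbers were not taken as pairs. Alox8, Trem2 and Gm14113 lost their calls under both blocks, with edgeR adjusted p-values of 0.116, 0.123 and 0.324 under the replicate block, and 2810407A14Rik and Adamts1 were among the 12 segment genes lost under the replicate block. Near no change, the sign of Runx1 (-0.11 to 0.073) and Erg (-0.065 to 0.034) turned with 1 library left out. List medians moved by more than the spread between replicates in 3 of 684 values, among them striatum (0.24 without wt replicate 2) and other protein-coding genes of the segment (0.52 without wt replicate 4). Of 757 values of the 40 genes of the naming rule, 664 kept direction and call. Causes of these shifts were not tested. The interaction of genotype and region called 0 genes in edgeR with the animal as a block and under the other filter, with 726 and 265 genes at an unadjusted p under 0.05, and 0 in limma voom, with 386.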

Other observations

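Some genes outside the segment with a call in DESeq2 did not pass in edgeR, and these were chosen after their values were seen. Hspa8, the constitutive heat shock cognate that uncoats clathrin vesicles, read 367, 416, 277, 505 and 301 CPM in the wt libraries and 471, 674, 587, 536, 745 and 485 CPM in the Ts66Yah libraries. The genotypes overlapped, with a change of 0.64 ± 0.16 (SE) on the log2 scale (edgeR adjusted p 0.222) and a DESeq2 adjusted p of 0.0122. Cbs encodes cystathionine beta-synthase, whose human homologue lies on Hsa21 and whose mouse gene lies outside the segment. It read 20.02, 18.8, 20.4, 21.1 and 20.8 CPM in the wt libraries and 14.3, 13.8, 14.2, 10.9, 19.5 and 11.3 CPM in the Ts66Yah libraries. All Ts66Yah libraries but replicate 5 lay below all wt libraries, with a change of -0.53 ± 0.13 (SE) on the log2 scale (edgeR adjusted p 0.186) and a DESeq2 adjusted p of 0.0135. Without Ts66Yah replicate 4 the edgeR log2 changes were 0.67 for Hspa8 and -0.47 for Cbs.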
